A study of Homo sapiens with 8 samples.

Results

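The genes described here code for the non-laminin backbone of basement membranes: the collagen IV chains COL4A1, COL4A2, COL4A5 and COL4A6, the nidogens NID1 and NID2, the heparan sulfate proteoglycans perlecan (HSPG2) and agrin (AGRN), and the multiplexin collagens COL15A1 and COL18A1. These 10 genes were chosen by name, for their role, out of 23350 genes in the deposited table of normalized counts. They and the gene lists used below were chosen with earlier results of these data known, so their shares of called genes are descriptive only. The RNA of these genes was followed across 3 culture substrates. The cells were oligodendrocyte progenitor cells (OPCs) derived from H9, a human embryonic stem cell line, seeded on plates coated with Matrigel (the control), with recombinant vitronectin (VN) or with VNP2, a peptide designed from the vitronectin sequence. RNA was sequenced after 2 days on the coating, with no SOX10 transgene in any group, in 2 Matrigel libraries (replicates 2 and 3), 3 VN libraries and 3 VNP2 libraries. All libraries came from 1 cell line, and no source used here says whether replicates were separate cultures. The p-values therefore set differences against the spread between these libraries, which may be technical.

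Basement membranes are thin extracellular sheets in which a laminin polymer and a collagen IV network lie on each other. Collagen IV chains assemble as trimers, either from COL4A1 and COL4A2 products or from COL4A5 and COL4A6 products among others, while nidogens bridge laminin to collagen IV and perlecan and agrin carry heparan sulfate chains that hold growth factors. In the brain such sheets surround blood vessels and cover the pial surface. Matrigel is itself a basement membrane extract of a mouse tumour and holds laminin, collagen IV, nidogen and perlecan, whereas VN and VNP2 offer none of these proteins.

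Each collagen IV pair is transcribed from opposite strands of 1 shared stretch of DNA, and these intervals are shown for that reason. In RefSeq (GRCh38.p14, plus strand), 126 bases separated the first base of COL4A1 (minus strand) from that of COL4A2 (plus strand), at chr13:110307158-110307283. Between the nearest start of COL4A6 (minus strand) and COL4A5 (plus strand) lie 379 bases. Of these the 300 nearest to COL4A5 are given, chrX:108439538-108439837. A second COL4A6 start lies further from COL4A5, at chrX:108438422. Capitals mark CCAAT boxes (CCAAT, or ATTGG on the other strand) and GC boxes (GGGCGG, or CCGCCC on the other strand).
COL4A1-COL4A2: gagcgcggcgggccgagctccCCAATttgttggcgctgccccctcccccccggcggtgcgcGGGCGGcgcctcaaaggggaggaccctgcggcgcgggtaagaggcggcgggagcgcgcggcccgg
COL4A6-COL4A5: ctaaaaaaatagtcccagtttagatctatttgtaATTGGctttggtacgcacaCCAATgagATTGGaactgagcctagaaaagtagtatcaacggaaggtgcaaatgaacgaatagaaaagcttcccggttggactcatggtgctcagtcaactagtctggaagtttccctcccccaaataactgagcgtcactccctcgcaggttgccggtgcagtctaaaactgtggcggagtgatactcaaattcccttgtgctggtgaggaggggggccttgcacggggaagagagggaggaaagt
The COL4A1-COL4A2 interval had a GC content of 80.2%, with 1 CCAAT box and 1 GC box, and the COL4A6-COL4A5 stretch had 48.3%, with 3 CCAAT boxes and no GC box. Neither held TATAAA or its reverse complement. Over all 35116 RefSeq promoter windows of 300 bases the median GC content was 58.7%, and 34.6% held a CCAAT box, 45% a GC box and 11.5% a TATAAA on either strand. Of the other members, the HSPG2 window (chr1:21937261-21937560, GC content 83.3%) held 10 GC boxes and no CCAAT box, and the NID1 window (chr1:236065041-236065340, 74.7%) held 1 of each. These matches describe letters only.

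In the gene models used here (GRCh38), COL4A1 spans chr13:110148963-110307233 and COL4A2 chr13:110305812-110513209, so the models of this pair overlap at their starts on opposite strands. The library kit marks the strand, but how the counting treated it is not given in the sources used here, and reads from the shared exons may be split between both genes. COL4A6 (chrX:108155607-108439497) and COL4A5 (chrX:108439844-108697545) do not overlap. NID1 lies at chr1:235975830-236065162, NID2 at chr14:52004803-52069228, HSPG2 at chr1:21822245-21937297, AGRN at chr1:1020123-1056118, COL15A1 at chr9:98943179-99070792 and COL18A1 at chr21:45405137-45513720.

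The libraries held 37997896 to 39429453 estimated counts. VN replicate 1 stood apart from the other VN libraries, with a median chi-square per gene of 2.35 and 2.75 against them, where sampling noise alone gives 0.455 and the other replicate pairs gave 0.713 to 1.19. Of 7 OPC marker genes, 6 passed the filter on low counts and SOX10 did not, and their summed normalized counts were 17486 to 17784 on Matrigel, 22167 to 23479 on VN and 25174 to 27562 on VNP2. PTPRZ1 made up most of this sum (means of 13200, 17300 and 20700). Its matched transcripts held 0.787 of its level in the deposited table of normalized counts. Mural marker genes, which label pericytes and smooth muscle, summed to 35215 to 37013 on Matrigel, 18365 to 20515 on VN and 18334 to 19013 on VNP2 (7 of 9 tested, MYH11 and DES not). Mesenchymal markers (10 of 10 tested) summed to 50849 to 52742, 47192 to 50132 and 41344 to 42385, and endothelial markers (8 of 10 tested, PECAM1 and VWF not) to 1704 to 1825, 1655 to 1695 and 1634 to 1643. For comparison with the marker counts here, 9.6% of all genes tested fell and 5.66% rose on VN, and 9.13% fell and 7.44% rose on VNP2. Of the mural markers 4 of 7 fell on each coating, TAGLN from a mean of 14100 normalized counts to 3250 and 2880. NOTCH3 (means of 15900, 13100 and 13400) made up most of the mural sums on VN and VNP2. ABCC9, KCNJ8 and PDGFRB were not called against Matrigel on either coating. The mesenchymal sum fell with COL1A1 (means of 24700, 17100 and 9340), whereas more of its genes rose than fell: 3 rose and 2 fell on VN, and 5 rose and 2 fell on VNP2 (median 0.284), among them COL1A2, LUM and DCN, which rose on both. Further sums were highest on Matrigel and lowest on VN: radial glia markers (7 of 8 tested) at 196150 to 200270, 157200 to 163060 and 169390 to 170760 with Matrigel, VN and VNP2, astrocyte markers (2 of 4 tested, GFAP and AQP4 not) at 11355 to 11891, 6380 to 6823 and 7419 to 8072, and neural crest markers (5 of 8 tested) at 4742 to 4749, 2913 to 2988 and 3971 to 4138. Pluripotency markers (6 of 6 tested) summed to 5813 to 6178, 4601 to 4743 and 4341 to 4577. High-count genes weighed most in these sums. KDR made up most of the endothelial sum and was not called (means of 1120, 1170 and 1200). Of the 8 endothelial genes tested 2 fell on each coating, TEK among them (327, 164 and 127), and none rose. The radial glia sum fell with VIM and NES, while 1 gene rose and 2 fell on VN, and 2 moved each way on VNP2. GJA1 made up most of the astrocyte sum (means of 11600, 6570 and 7740). The neural crest sum fell with ETS1 (2720, 1040 and 1390), although 2 genes rose and 1 fell on VNP2. LIN28A weighed most among pluripotency markers (4380, 2970 and 2760), where 1 gene rose and 3 fell on VNP2. The part of these markers in the results below was not tested. In bulk RNA, fewer cells of a type and less RNA per cell cannot be told apart.

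Of the members, 9 were followed as counts summed per gene from the transcript files and tested with edgeR's quasi-likelihood test over 18201 genes. COL18A1 was handled separately, because the transcripts that could be matched to it held only 3.73% of its level in the authors' table. Its values are the authors' normalized counts, tested with limma on log2(value + 1) over all 23350 genes. A gene was called changed at a Benjamini-Hochberg adjusted p under 0.05. Both comparisons against Matrigel share the same Matrigel libraries, so their values are given side by side and not as independent results.

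Across the 3 substrates, 6 of the 9 members differed (19.3% of all genes tested did so): COL4A1, COL4A2, COL4A5, COL4A6, NID1 and HSPG2. With 1 library left out, 4 to 8 members passed (4 without either Matrigel library or VN replicate 2 or 3, and 8 without VN replicate 1). COL18A1 also differed in its own test (adjusted p = 8.38e-05, against 15.3% of genes called in that fit). On VN, 4 of the 9 members passed against Matrigel (15.3% of all genes): HSPG2 and NID1 fell (9.6% of genes fell), and COL4A5 and COL4A6 rose (5.66% rose). On VNP2, 4 of 9 passed (16.6% of all genes), and HSPG2, NID1, COL4A1 and COL4A2 all fell (9.13% fell and 7.44% rose). Between VNP2 and VN, 2 of 9 passed (5.1% of all genes), and COL4A6 and COL4A1 were both lower on VNP2 (2.01% were lower and 3.09% higher). The median log2 fold change of the 9 members was -0.12 on VN, -0.01 on VNP2 and -0.13 for VNP2 against VN, where the medians over all genes tested were 0.0044, 0.0024 and 0.00073.

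**Figure D1:**
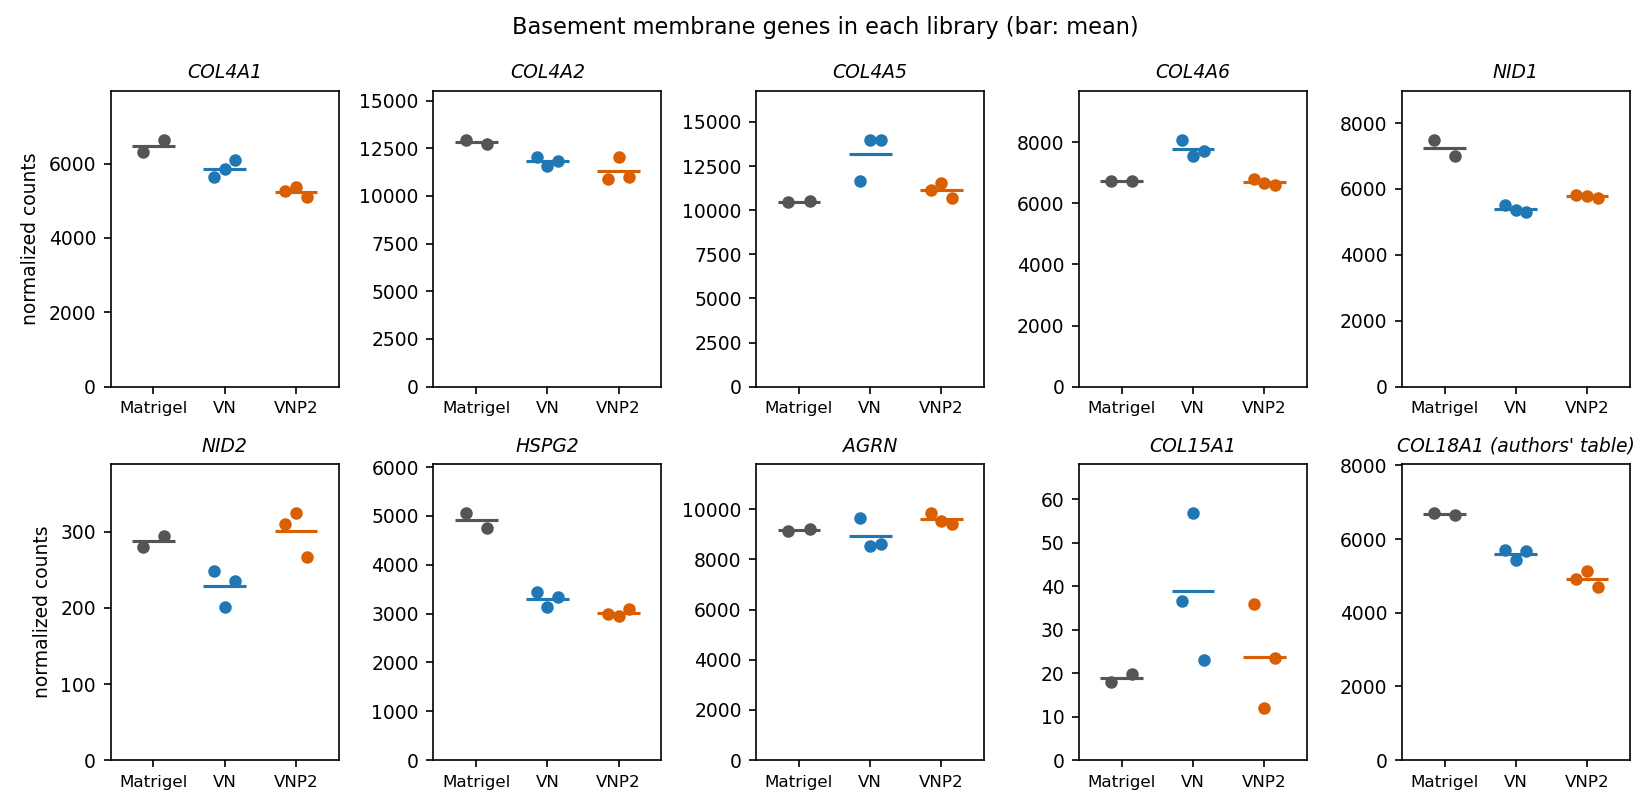
Normalized counts (vertical axes, from 0) of the 10 basement membrane genes in each library on Matrigel (2 libraries), VN (3) and VNP2 (3), with a bar at each group mean. HSPG2, NID1 and COL18A1 are highest in both Matrigel libraries, whereas COL4A5 and COL4A6 are highest on VN.

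HSPG2, the gene of perlecan, had the largest change of the 9 members against Matrigel among those called. Matrigel libraries held 5052 and 4761 normalized counts, VN libraries 3440, 3125 and 3335, and VNP2 libraries 3001, 2947 and 3103. Every Matrigel library lay above every VN and VNP2 library, and the lowest VN library lay just above the highest VNP2 library. The VN level was 0.673 times the Matrigel level (log2 fold change -0.57, SE 0.0495, adjusted p = 3.54e-05) and the VNP2 level 0.615 times (-0.70, SE 0.0495, adjusted p = 5.48e-06). VNP2 and VN were not separated by the test (-0.13, 95% interval -0.23 to -0.03, adjusted p = 0.147). Leaving out any 1 library kept both falls against Matrigel past the threshold, with log2 fold changes of -0.61 to -0.52 on VN and -0.74 to -0.65 on VNP2. Summed mural, mesenchymal, endothelial, radial glia, astrocyte, neural crest and pluripotency markers given above were likewise higher in both Matrigel libraries than in any other. So were oligodendrocyte sums (4 of 6 tested), at 6863 to 6900 on Matrigel, 6211 to 6859 on VN and 6273 to 6702 on VNP2. OPC sums were lowest on Matrigel, as were neuron sums (8 of 8 tested), at 41266 to 42347, 46497 to 49433 and 51665 to 53148. The endothelial sums lay close together, and KDR, which made up most of them, was not called. The part of these markers in the HSPG2 and NID1 values was not tested.

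NID1, the main nidogen of these cells, also fell on both coatings. In normalized counts, the Matrigel libraries stood at 7491 and 7012, those on VN at 5523, 5355 and 5298, and those on VNP2 at 5819, 5785 and 5740. The Matrigel libraries lay well above the rest, and the VNP2 libraries, which varied little (5780 ± 39.4, SD, n = 3), lay above all VN libraries (5390 ± 117, SD, n = 3). NID1 fell by 25.6% on VN (log2 fold change -0.43, SE 0.0390, adjusted p = 5.28e-05) and by 20.3% on VNP2 (-0.33, SE 0.0390, adjusted p = 0.00024). The gap between VNP2 and VN did not pass (0.10, 95% interval 0.02 to 0.18, adjusted p = 0.147).

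NID2, the second nidogen, was far scarcer and showed another order. The Matrigel replicates measured 280 and 295 normalized counts, compared with 249, 201 and 236 for VN and 310, 324 and 267 for VNP2. All VN libraries lay below all Matrigel and VNP2 libraries, while Matrigel and VNP2 overlapped. None of these differences passed: the log2 fold changes were -0.33 on VN (SE 0.121, adjusted p = 0.0947), 0.06 on VNP2 (adjusted p = 0.790) and 0.39 for VNP2 against VN (SE 0.109, adjusted p = 0.0705). Without VN replicate 1 the VNP2 to VN difference was 0.46 and passed (adjusted p = 0.0375). On the TPM scale, which corrects for transcript length, the NID2 to NID1 ratio had a mean of 0.0548 on Matrigel, 0.0585 on VN and 0.0717 on VNP2. This ratio was highest in the VNP2 libraries (0.0735, 0.0773 and 0.0642), above the Matrigel (0.0516 and 0.0580) and VN libraries (0.0621, 0.0518 and 0.0614). The exact permutation test over the 560 assignments of libraries to substrates gave p = 0.0679 (adjusted p = 0.204 over 3 ratios), so the ratios were not shown to differ.

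COL4A1, a chain of the most widespread collagen IV network, was lowest on VNP2. Normalized counts of 6299 and 6639 were measured for Matrigel, of 5641, 5852 and 6101 for VN, and of 5266, 5368 and 5100 for VNP2. The groups formed 3 steps without overlap. COL4A1 fell by 18.9% on VNP2 against Matrigel (log2 fold change -0.30, SE 0.0443, adjusted p = 0.00096). On VN the difference was -0.14 (SE 0.0444) and did not pass (adjusted p = 0.0567). VNP2 was lower than VN by a log2 fold change of -0.16 (SE 0.0400, adjusted p = 0.0456), but this call was lost when any 1 library except VN replicate 1 was left out (adjusted p 0.0142 to 0.164 over the 8 omissions). It was also lost when only the full-length coding transcripts of the members were counted (-0.08, adjusted p = 0.215).

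COL4A2, the partner of COL4A1 in the same trimer, had smaller estimated changes against Matrigel, although the ratio test below did not separate the genes. Matrigel libraries held 12942 and 12722 normalized counts, VN libraries 12059, 11591 and 11827, and VNP2 libraries 10906, 12050 and 10981. Both Matrigel libraries were above all others, and VNP2 replicate 2 lay among the VN libraries. COL4A2 fell by 11.8% on VNP2 (log2 fold change -0.18, SE 0.0451, adjusted p = 0.0197), a call that was lost with the omission of either Matrigel library (adjusted p = 0.146 without replicate 2 and 0.0915 without replicate 3) or of VNP2 replicate 1 or 3 (0.0648 and 0.0817). On VN the value was -0.12 (SE 0.0452, adjusted p = 0.109), and between VNP2 and VN it was -0.06 (adjusted p = 0.428). The call of COL4A2 across the 3 substrates (adjusted p = 0.0418) passed in 2 of the 8 fits with 1 library left out, with adjusted p from 0.00853 to 0.22. The COL4A2 to COL4A1 ratio in TPM had a mean of 1.73 with Matrigel, 1.76 with VN and 1.88 with VNP2, and it was not shown to differ (exact permutation p = 0.214, adjusted p = 0.321).

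COL4A6, a chain of another collagen IV network, was highest on VN. In normalized counts, the Matrigel libraries stood at 6727 and 6739, those on VN at 8070, 7544 and 7699, and those on VNP2 at 6780, 6667 and 6588. Every VN library lay above every other library, and VNP2 spanned the Matrigel values. COL4A6 was 1.15 times as high on VN as on Matrigel (log2 fold change 0.21, SE 0.0381, adjusted p = 0.00518), and VNP2 was lower than VN (-0.22, SE 0.0339, adjusted p = 0.00429). Both calls held when any 1 library was left out. The rise on VN also passed when only full-length coding transcripts were counted (0.15, adjusted p = 0.0175), but not without correction for transcript length (0.13, adjusted p = 0.0689). VNP2 differed from Matrigel by -0.01, with a 95% interval of -0.10 to 0.07 (adjusted p = 0.879).

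COL4A5, the partner of COL4A6, was also highest on VN, with a call that depended on single libraries. The Matrigel replicates measured 10436 and 10494 normalized counts, compared with 11648, 13984 and 13984 for VN and 11164, 11528 and 10676 for VNP2. All VNP2 libraries lay between the Matrigel and the VN libraries, and VN replicate 1 lay close to VNP2, far below the other VN libraries. COL4A5 was 1.26 times as high on VN as on Matrigel (log2 fold change 0.34, SE 0.0715, adjusted p = 0.0111). It differed by 0.09 on VNP2 (adjusted p = 0.470) and by -0.25 between VNP2 and VN (SE 0.0634, adjusted p = 0.0532). Without Matrigel replicate 2 or 3 the VN call was lost (adjusted p = 0.0768 and 0.0748), and without VN replicate 1 the VNP2 to VN difference became -0.33 and passed (adjusted p = 0.000632). The call of COL4A5 across the 3 substrates (adjusted p = 0.0132) was lost without Matrigel replicate 2 or 3 or VN replicate 2 or 3 (adjusted p = 0.0529, 0.0527, 0.0521 and 0.0526), and with full-length coding transcripts alone (adjusted p = 0.133).

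The rise of COL4A5 depended on which of its transcripts were counted. COL4A5-201, the most abundant full-length transcript (mean effective length 7200 bases), measured 46.8 and 44.6 TPM for Matrigel, 49.1 to 50.9 for VN, and 44.5, 48.7 and 45.4 for VNP2. COL4A5-207, a coding model with an effective length of only 514 bases, measured 17.8 and 17.9 TPM for Matrigel, 17.1, 45.1 and 41.7 for VN, and 25.7, 26.7 and 21.6 for VNP2. The short model was thus high in VN replicates 2 and 3 and near the Matrigel level in VN replicate 1. It held 194 to 521 estimated counts per library, against 7407 to 8359 for COL4A5-201, and a count on so short a model weighs heavily when levels are set per length. With only the full-length coding transcripts of the members counted, the VN to Matrigel difference of COL4A5 was 0.09 (SE 0.0405, adjusted p = 0.174), and without length correction it was 0.11 (SE 0.0367, adjusted p = 0.0572). The same choices brought other members past the threshold on VN. With full-length transcripts alone, COL4A1 fell (-0.22, adjusted p = 0.00283), as did COL4A2 (-0.15, adjusted p = 0.0172) and NID2 (-0.37, adjusted p = 0.0423). Without length correction these values were -0.20, -0.16 and -0.35 (adjusted p = 0.00381, 0.025 and 0.0271).

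**Figure D2:**
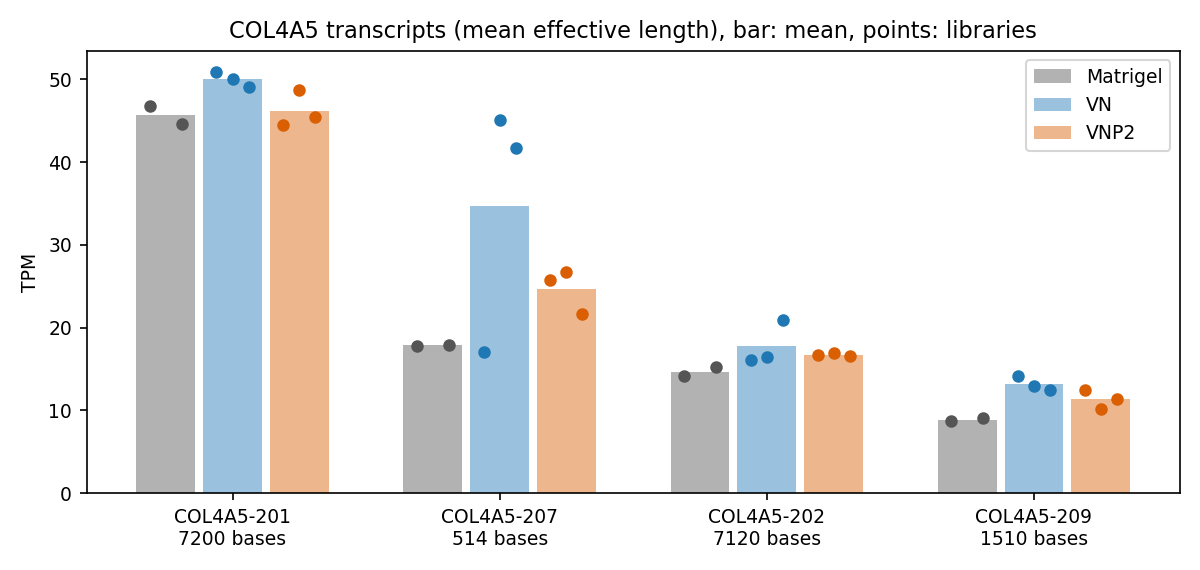
TPM (vertical axis) of the 4 COL4A5 transcripts with the highest levels in each library, with bars at the group means and the mean effective length under each name. The short COL4A5-207 is at 45.1 and 41.7 TPM in 2 VN libraries and at 17.1 in the remaining one, while the full-length COL4A5-201 stays between 44.5 and 50.9 TPM in every library.

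The COL4A6 to COL4A5 ratio in TPM had a mean of 0.418 on Matrigel, 0.386 on VN and 0.390 on VNP2 (exact permutation p = 0.579, adjusted p = 0.579). Among VN libraries it was 0.450, 0.350 and 0.358, with VN replicate 1 above every other library. Over full-length transcripts the same ratio had geometric means of 0.601, 0.629 and 0.599, with VN highest instead of lowest. Over all transcripts and libraries, 18.8% of the variation in the ratio lay between substrates. Without VN replicate 1 this share was 91.8%, and the test passed (exact permutation, adjusted p = 0.0286). The VN libraries left in that fit, replicates 2 and 3, were those with high COL4A5-207.

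AGRN, the gene of agrin, which clusters acetylcholine receptors at the neuromuscular junction and is made by many basement membrane forming cells, was not called on either coating. Normalized counts of 9124 and 9229 were measured for Matrigel, of 9669, 8546 and 8619 for VN, and of 9838, 9532 and 9419 for VNP2. VN replicate 1 lay among the VNP2 libraries, and the other VN libraries lay below all Matrigel libraries. The log2 fold changes were -0.04 on VN (95% interval -0.15 to 0.08, adjusted p = 0.689) and 0.06 on VNP2 (-0.05 to 0.18, adjusted p = 0.467). VNP2 exceeded VN by 0.10 (SE 0.0464, adjusted p = 0.262), and without VN replicate 1 by 0.16 (adjusted p = 0.00880). Of perlecan and agrin, HSPG2 was thus called on both coatings and AGRN on neither, and the difference between these genes was not tested. The matched AGRN transcripts held 96.7% of its level in the authors' table.

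COL18A1, whose protein releases the endostatin fragment, was highest on Matrigel and lowest on VNP2 in the authors' table. Matrigel libraries held 6699 and 6660 normalized counts, VN libraries 5698, 5441 and 5683, and VNP2 libraries 4915, 5124 and 4700. The groups formed 3 steps without overlap. On the log2(value + 1) scale COL18A1 changed by -0.25 on VN (SE 0.0443, adjusted p = 0.00298, where 12.1% of genes were called and 7.44% fell) and by -0.44 on VNP2 (SE 0.0443, adjusted p = 2.77e-05, where 12.9% were called and 7% fell). VNP2 was below VN by -0.19 (SE 0.0396, adjusted p = 0.0175, where 4.06% were called and 1.62% were lower), but without VN replicate 3, VNP2 replicate 1 or VNP2 replicate 3 this call was lost (adjusted p = 0.0773, 0.0707 and 0.0936). COL1A1 had the same order of group means as COL18A1 and COL4A1, while more mesenchymal markers rose than fell on either coating.

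COL15A1, the other multiplexin, was close to the floor. In normalized counts, the Matrigel libraries stood at 17.9 and 19.7, those on VN at 36.6, 56.7 and 23.1, and those on VNP2 at 35.8, 11.9 and 23.5. All VN libraries lay above both Matrigel libraries, but the VN libraries spread widely. The log2 fold change on VN was 1.03 with a 95% interval of -0.04 to 2.09 (adjusted p = 0.183), and on VNP2 it was 0.27 with an interval of -0.82 to 1.35 (adjusted p = 0.781), so at this depth no difference was detectable.

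**Figure D3:**
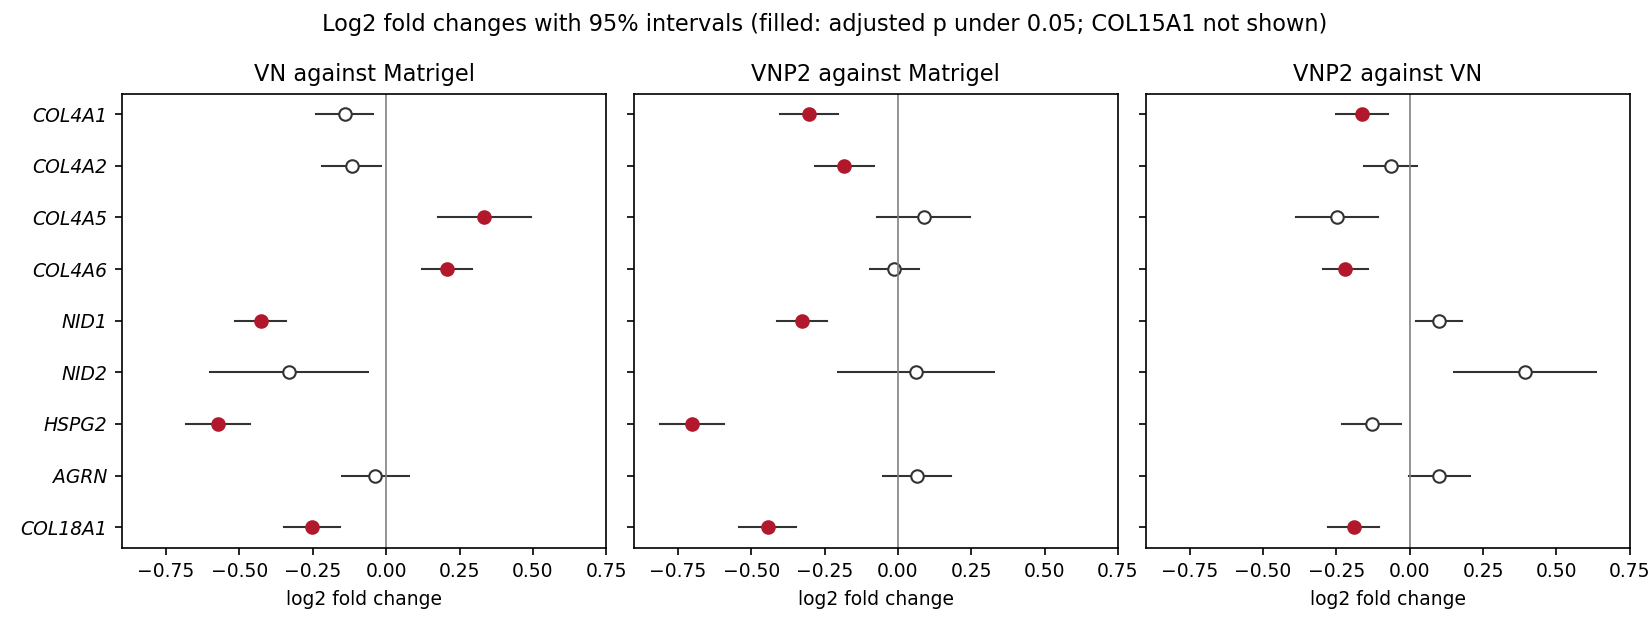
Log2 fold changes (horizontal axes) of 9 basement membrane genes with 95% intervals for VN against Matrigel, VNP2 against Matrigel and VNP2 against VN, filled where the adjusted p was under 0.05. COL15A1 is not shown, and COL18A1 comes from the authors' table. HSPG2 is the lowest on both coatings (-0.57 and -0.70), and COL4A5 and COL4A6 lie right of 0 on VN (0.34 and 0.21).

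The members' libraries often did not overlap between substrates, as was true of many genes. On VN, 8 of the 9 members did not overlap with Matrigel (44.4% of all genes did not), on VNP2 6 of 9 (48.1%), and between VNP2 and VN 6 of 9 (23.6%). COL18A1 did not overlap in any of the comparisons, where 40.2%, 43.3% and 21.3% of the genes in the authors' table did not.

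Per length, COL4A5 was the most abundant member, at a mean of 122 TPM over the 8 libraries (range 103 to 149), above 96.0% of the genes with a count. COL4A2 followed at 83.2 TPM (76.8 to 86.9) and AGRN at 65.0 (61.5 to 69.5), and these 3 ranges did not overlap. COL4A6 (47.7, range 43.3 to 54.1), COL4A1 (46.5, range 41.5 to 51.5) and NID1 (45.1, range 41.0 to 54.0) could not be ordered, as their ranges covered each other. HSPG2 was at 11.3 TPM (9.36 to 15.3), NID2 at 2.80 (2.15 to 3.39) and COL15A1 at 0.353 (0.150 to 0.727). When only full-length coding transcripts were summed, COL4A5 was at 64.9 TPM, AGRN at 61.1, COL4A2 at 59.8, NID1 at 45.1, COL4A6 at 39.7 and COL4A1 at 29.5. The lead of COL4A5 thus came largely from short models. NID1 moved above COL4A1, at 41.0 to 54.0 TPM against 26.9 to 32.6. It could still not be ordered against COL4A6, whose range overlapped with it. COL4A6 was the higher of the pair in each VN library (43.7, 43.6 and 42.7 against 41.6, 41.4 and 41.0 TPM). COL18A1 has no TPM level here.

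**Figure D4:**
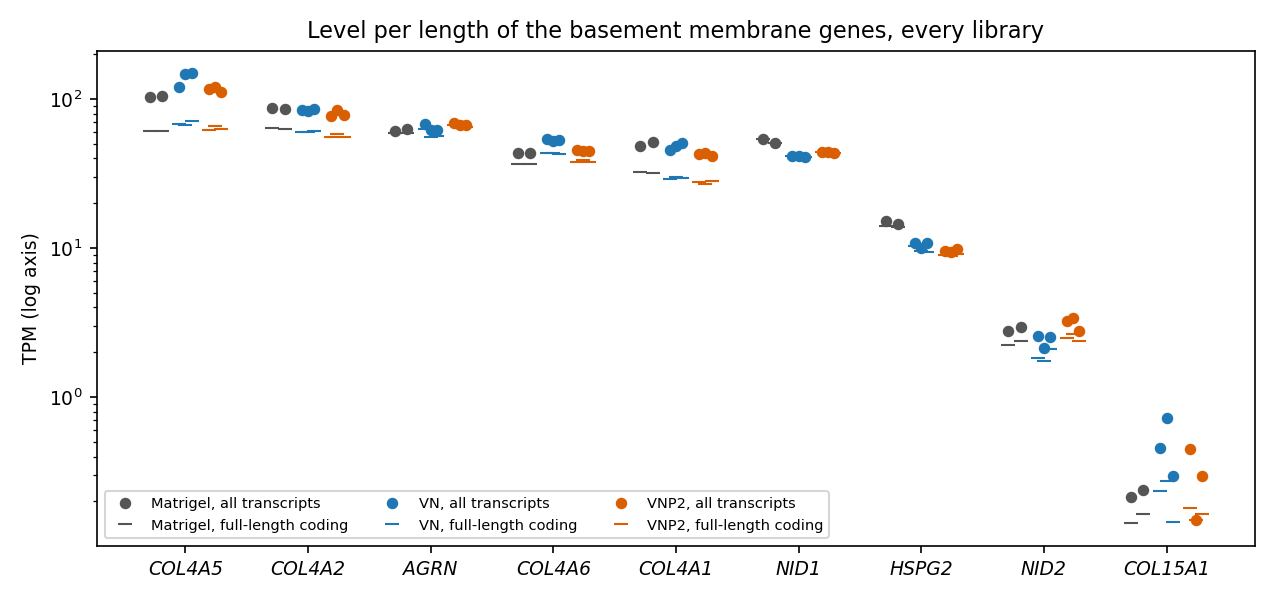
TPM (vertical log axis) of 9 basement membrane genes in every library, as the sum of all transcripts (points) and of full-length coding transcripts (dashes). COL4A5 is highest at 103 to 149 TPM over all transcripts, and its full-length sum lies with those of COL4A2 and AGRN.

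The share of each gene's TPM that its main transcript held was compared next. AGRN-201 made up 80.7% ± 1.68 on Matrigel (SD, n = 2), 74.6% ± 1.56 on VN (SD, n = 3) and 77.2% ± 3.32 on VNP2 (SD, n = 3), and COL4A5-201 44.0% ± 1.91, 36.3% ± 5.15 and 39.9% ± 1.28. HSPG2-203 held 92.0% to 93.6% and NID1-201 89.9% to 92.2% in the group means. None of the 9 shares was shown to differ between substrates by the exact permutation test (p of 0.125 or more, adjusted p from 0.643 to 0.907).

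The genes whose profile over the 8 libraries was most like that of a member were ranked by the root mean square difference of mean-centred log2 normalized counts. For NID1, of 12995 candidates, these were ACTB (0.0303), HCCS (0.0341) and GBE1 (0.0373). ACTB, the gene of cytoplasmic beta-actin, averaged 323000 normalized counts with Matrigel, 242000 with VN and 255000 with VNP2, and it has processed pseudogenes with which it can share reads. For COL4A1 they were SHCBP1 (0.0342), TMEM144 (0.0390) and FYCO1 (0.0404), and for COL18A1, of 13178 candidates in the authors' table, MOXD1 (0.0413), MORC4 (0.0461) and PRDX6 (0.0463).

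The genes that fold and modify collagen chains were lower wherever they were called. Of 20 such genes, all tested, 12 fell on VN and 12 on VNP2, where 9.6% and 9.13% of all genes fell, the remaining 8 were not called in each case, and the median log2 fold change was -0.223 on either coating (all genes: 0.0044 and 0.0024). COLGALT2, which adds galactose to hydroxylysine, had the smallest adjusted p of the list (-0.78 on VN and -0.90 on VNP2, adjusted p = 4.64e-06 and 1.06e-06). P3H2, a prolyl 3-hydroxylase that acts on collagen IV, fell on VN (-0.93, adjusted p = 0.0107) and was at -0.58 on VNP2 (adjusted p = 0.0713). P4HA2, a catalytic subunit of prolyl 4-hydroxylase, fell on both (-0.32 and -0.58, adjusted p = 0.0200 and 0.000503). SERPINH1, the collagen chaperone, fell on VN (-0.30, adjusted p = 0.00797) and was at -0.18 on VNP2 (adjusted p = 0.0698). MIA3, which loads collagen for export, was not called (0.13 and -0.13).

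Among 6 crosslinking enzymes, 2 fell on VN and 3 on VNP2 (9.6% and 9.13% of all genes fell), the rest were not called, and the medians were -0.272 and -0.225. LOXL2, a lysyl oxidase that crosslinks collagen IV, fell on VN (-0.94, adjusted p = 4.66e-06) and VNP2 (-1.14, adjusted p = 8.25e-07), more than any collagen IV chain. LOXL1, known for elastin crosslinking, fell by less (-0.53 and -0.59). PXDN, the peroxidase that forms sulfilimine bonds between collagen IV trimers, was at -0.02 on VN (adjusted p = 0.705) and fell by 0.12 on VNP2 (adjusted p = 0.0292).

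Other basement membrane components moved both ways. Of 21 genes tested out of 25, 6 rose and 3 fell on VN and 8 rose and 3 fell on VNP2, with medians of 0.148 and 0.0488. Of all genes, 5.66% rose and 9.6% fell on VN, and 7.44% rose and 9.13% fell on VNP2. SPARC, which binds collagen IV, fell on VN (-0.43) and VNP2 (-0.49), and MATN2, a matrilin, fell further (-1.42 and -1.64). FREM1 rose on VNP2 (0.61, adjusted p = 0.00154) and was at 0.15 on VN. DCN, the small proteoglycan decorin, rose on both (0.53 and 0.34). Of 11 laminin chains tested out of 12, 3 fell and 8 were not called on VN, whereas on VNP2 3 fell and 3 rose, with medians of -0.148 and -0.204, against the same shares of all genes. LAMB1 fell on both coatings (-0.69 and -0.46), and LAMA4 and LAMA2 rose on VNP2 (0.89 and 0.66) and were not called on VN (-0.15 and 0.05).

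Of 12 receptors tested out of 13, 6 fell and 6 were not called on VN, and on VNP2 6 fell and 2 rose, with medians of -0.226 and -0.228 (of all genes 9.6% fell on VN, and on VNP2 9.13% fell and 7.44% rose). ITGA3, a laminin-binding integrin subunit, fell strongly (-1.27 and -1.31). ITGA1, part of a collagen IV receptor, was at -0.82 and -0.76 in transcripts that held only 0.166 of its level in the authors' table. DAG1, dystroglycan, which binds laminin, agrin and perlecan, fell slightly (-0.16 and -0.21). BCAM, a laminin receptor, rose on VNP2 (0.39, adjusted p = 0.000746) and was at -0.04 on VN. LRP4, a receptor for agrin, was not called (-0.31 and -0.25, adjusted p = 0.0611 and 0.123).

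Of 17 proteases and sulfatases tested out of 18, 4 fell and 13 were not called on VN, and 4 fell and 4 rose on VNP2, with medians of -0.235 and -0.122 (of all genes 9.6% fell on VN, and on VNP2 9.13% fell and 7.44% rose). SULF2, which removes sulfate groups from heparan sulfate chains, fell on both coatings (-0.55 and -0.56). TLL1, a tolloid-like protease, and ADAMTS9 rose on VNP2 (0.68 and 0.55, adjusted p = 0.0102 and 0.00397) and were not called on VN. PRSS12, which cleaves agrin, was not called on VN (-0.83, adjusted p = 0.0766) or VNP2 (-0.80, adjusted p = 0.0883).

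**Figure D5:**
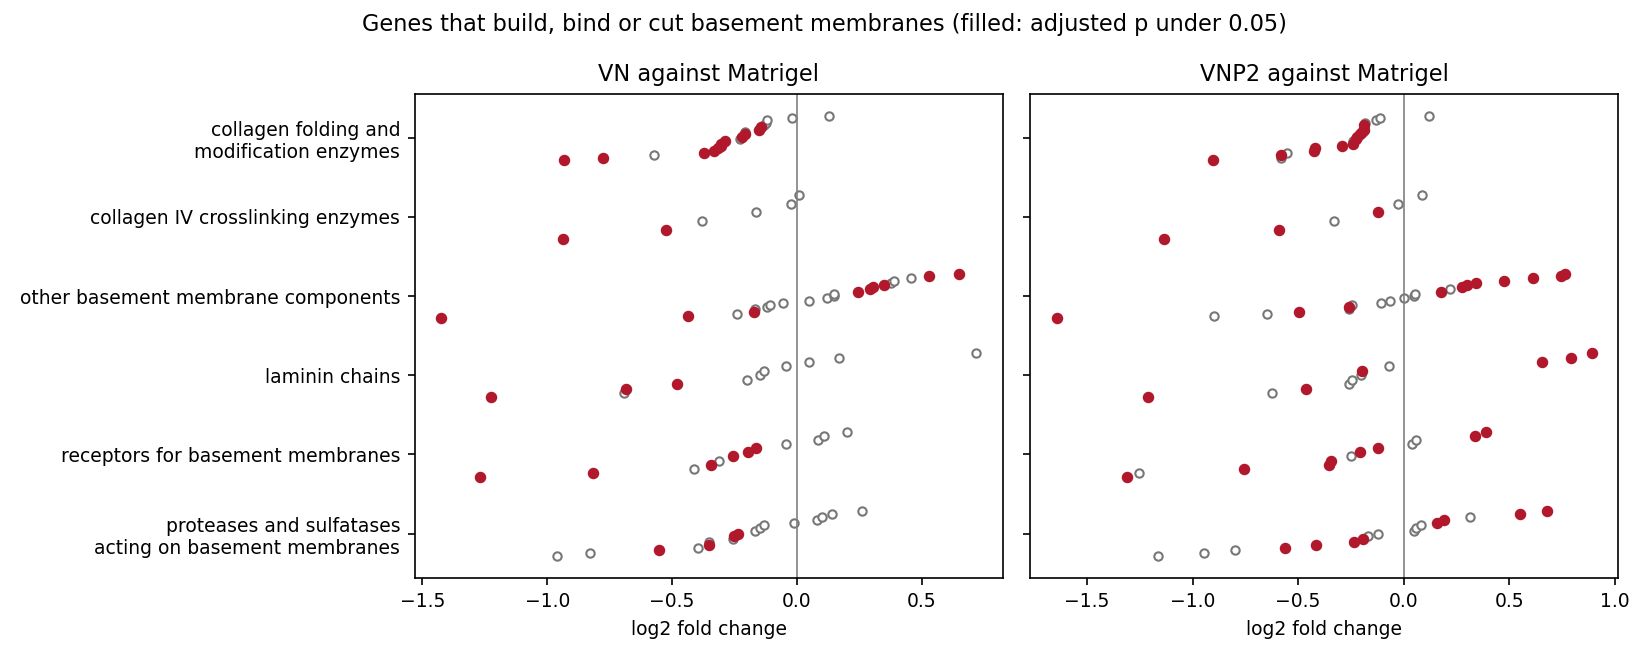
Log2 fold changes (horizontal axes) of the tested genes of 6 lists on VN and VNP2 against Matrigel, 1 point per gene, filled where the adjusted p was under 0.05. The filled points of the folding, crosslinking and VN receptor rows all lie left of 0, while the other components have filled points on both sides.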

How the data were processed

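RNA from 8 libraries of H9-derived OPCs was analysed, 2 on Matrigel, 3 on VN and 3 on VNP2. The authors trimmed adapters and quantified transcripts with Salmon, and the deposited transcript files give estimated counts and TPM per transcript. The submitters' processing notes name DESeq2 1.27.12 and GRCh38.p13. The authors' gene table holds counts divided by size factors, a normalized signal that is not a raw count. No column of it came from other samples.

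Transcripts were matched by identifier to an earlier GENCODE release (205225 of 226608, holding 98.8% to 98.9% of the estimated counts), summed per gene with length offsets, rounded to whole numbers, filtered (minimum count 10, minimum total 15) and tested with edgeR 4.0.16 in R 4.3.3, all groups in 1 fit. For COL18A1, limma 3.58.1 with a trend was run on log2(value + 1) of the authors' table. That test was not the one planned for counts and replaced it because few of its counts were matched. Intervals are 95% confidence intervals of the log2 fold change, with an SE based on the spread between libraries. The edgeR and limma fits were tried on simulated counts with equal transcript lengths, so the length offsets were not tested there. The permutation test was tried on made-up values. Alternatives were DESeq2 1.42.0, other scaling, filters and length treatment, the replicate block and leaving out each library.

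Named genes were the 10 members, up to 3 called genes per list averaging 100 normalized counts or more with the largest change against Matrigel, 8 genes that act on members, and the 3 nearest profiles to COL4A1, NID1 and COL18A1. The members and lists were chosen with earlier results of these data known. Matrigel replicate 1 was not analysed here.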

Additional observations from a re-analysis of the deposited data

How the results depend on the processing

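Of 483 alternative fold changes of members, 434 kept their direction and their side of the threshold, 24 lost a call, 20 gained one and 5 changed sign. COL4A5 on VNP2 against Matrigel changed sign without length correction (-0.0172) and with full-length transcripts alone (-0.0112), and COL18A1 on VN changed sign when edgeR was run on its matched transcripts (0.31, adjusted p = 0.458). Leaving out 1 library gave -0.13 to 0.64 for COL15A1 and -0.0227 to 0.00118 for COL4A6, both on VNP2 against Matrigel. The members called between VNP2 and VN were 4 without length correction, 1 with only the libraries of that pair and 1 to 5 with 1 library left out (5 without VN replicate 1). The laminin chains called across the 3 substrates numbered 5, and 9 without the filter on low counts. With full-length transcripts alone the mean TPM was 64.9 for COL4A5, 59.8 for COL4A2, 61.1 for AGRN, 39.7 for COL4A6, 29.5 for COL4A1, 10.5 for HSPG2 and 2.23 for NID2. Leaving out 1 library moved the genes called across substrates to 1879 to 4975, on VN to 1188 to 3899, on VNP2 to 1609 to 3608 and between VNP2 and VN to 547 to 1996 (each highest without VN replicate 1). It moved the list genes called across the 3 substrates from 15 to between 7 and 17 for folding enzymes (lowest without a Matrigel library), from 8 to between 5 and 8 for receptors (5 without either Matrigel library) and from 13 to between 8 and 13 for other components (8 without VNP2 replicate 2), and the between-substrate share of the COL4A6 to COL4A5 ratio to 11.5% to 91.8%. Apart from the alternatives that left out samples or transcripts, the cause was not tested.

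The replicate numbers showed no clear pairing of the libraries. Same-numbered VN and VNP2 libraries had correlations of deviations from the group means of -0.133, 0.0112 and -0.132. Same-numbered Matrigel libraries gave 0.161 and -0.0959 with VN, and -0.0507 and 0.0343 with VNP2. Pairs with unlike numbers ran from -0.199 to 0.207. Deviations of the 2 Matrigel libraries are mirror images, so each of their correlations recurs with opposite sign under the other replicate number. With so few libraries, these values cannot decide whether cultures were paired. With the replicate block, COL4A2 lost its call across substrates (adjusted p = 0.0609), COL4A1 lost its call between VNP2 and VN (adjusted p = 0.0517) and COL4A5 gained one there (adjusted p = 0.0397), leaving 5 of 9 members called across substrates and 2 between VNP2 and VN. COL15A1 was not tested with at least 50 counts required in every library, and depth limits what can be said of it.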
